A study of Mus musculus with 6 samples.

Results

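The genes described here make, cut or sulfate the cardiac jelly, and were read as 10 of the 30619 rows of a count table by their gene symbols. They are the proteoglycan gene Vcan, the hyaluronan synthase gene Has2, the link protein gene Hapln1, the fibulin genes Fbln1 and Fbln2, the secreted protease genes Adamts1, Adamts5, Adamts9 and Adamts18, and the sulfate donor gene Papss2. Poly(A) RNA from whole mouse hearts of stage E12.5 was sequenced in 3 libraries titled CKO, a conditional knockout of Trim28 whose genotype label reads TRIM28 knockdown, and in 3 control libraries whose genotype label reads WT. TRIM28 is a co-repressor that zinc finger proteins bring to DNA, and the series concerns its part in the formation of the muscular wall of the cardiac chambers. The labels call the samples mixed embryonic cardiac cells. The sources used here do not give the Cre driver, the deleted exons, the strain or how many hearts entered a library.

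The cardiac jelly is the gel of hyaluronan and proteoglycan that lies between the muscle and the inner lining, the endocardium, of the embryonic heart. Hyaluronan chains carry many molecules of versican, the large chondroitin sulfate proteoglycan encoded by Vcan, and link proteins hold both together. Endocardium and muscle exchange signals across this gel while the muscular ridges called trabeculae grow, and secreted ADAMTS proteases later cut versican and bring that growth to an end. In the valve cushions the same matrix stays and fills with mesenchyme. The sulfate on its chains comes from a donor molecule, PAPS, that is made by the enzymes encoded by Papss1 and Papss2.

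Papss2 and Fbln2 fell and Adamts18 rose in CKO hearts, so 3 of the 10 genes passed the test, 1 in the higher and 2 in the lower direction. Papss2 stood at 49.8% and Fbln2 at 81.3% of the control mean, and Adamts18 at 389%. The other 7 genes, which include the main jelly components Vcan, Has2 and Hapln1 and the versican proteases Adamts1, Adamts5 and Adamts9, did not pass. Among all 17557 genes tested, 4.1% were called, 3.03% higher and 1.07% lower. The CKO and control values did not overlap for these 3 genes, nor for 22.1% of all genes tested (11.5% with CKO higher and 10.6% with CKO lower). The 10 genes were chosen with earlier results of these data known, so these shares are a description beside them and not a test. The median log2 fold change of the 10 genes was -0.13, against 0.00 over all genes tested. In RNA from whole hearts, fewer cells of a type and less RNA per cell cannot be told apart.

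The upstream sequences of the 3 called genes are shown here because these are the members whose levels parted between the groups. Each is the 250 bases before a RefSeq transcription start on build GRCm38.p6, written 5′ to 3′ on the gene's strand, at chr19:32595465-32595714, plus strand for the first start of Papss2, chr6:91212514-91212763, plus strand for Fbln2 and chr8:113848840-113849089, minus strand for Adamts18. Capitals mark 4 short motifs searched on both strands. They are the letters ACGTG (core of the hypoxia response element, shared with one form of E-box), the GATA factor motif AGATAA, the TATA box TATAAA and the SOX factor motif AACAAT.
Papss2: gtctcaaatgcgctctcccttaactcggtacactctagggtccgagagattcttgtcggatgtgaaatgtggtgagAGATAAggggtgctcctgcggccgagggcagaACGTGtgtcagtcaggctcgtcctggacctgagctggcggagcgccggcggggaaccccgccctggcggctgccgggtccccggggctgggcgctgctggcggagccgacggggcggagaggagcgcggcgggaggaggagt
Fbln2: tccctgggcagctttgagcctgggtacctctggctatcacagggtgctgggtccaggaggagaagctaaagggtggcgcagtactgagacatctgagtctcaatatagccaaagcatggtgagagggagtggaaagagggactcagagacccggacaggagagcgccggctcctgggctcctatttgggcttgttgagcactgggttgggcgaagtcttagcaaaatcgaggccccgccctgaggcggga
Adamts18: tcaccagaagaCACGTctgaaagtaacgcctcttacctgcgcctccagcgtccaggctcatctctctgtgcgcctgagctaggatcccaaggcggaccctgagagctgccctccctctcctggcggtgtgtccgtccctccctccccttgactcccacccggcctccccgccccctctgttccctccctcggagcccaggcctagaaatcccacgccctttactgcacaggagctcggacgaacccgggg
The Papss2 window held 1 AGATAA and 1 ACGTG, which began 174 and 142 bases before the start. The Adamts18 window held 1 ACGTG on the other strand, which began 239 bases before the start, and the Fbln2 window held no match to these letters. ACGTG stood in 16.6%, AGATAA in 9.99%, TATAAA in 12.4% and AACAAT in 9.42% of the 32851 windows of the same length in the RefSeq table, so a match is a description and not a site. Base composition differed among the 3 windows, with 24 CG pairs in that of Papss2, 15 in that of Adamts18 and 8 in that of Fbln2, against a median of 6 over all windows. A second RefSeq start of Papss2 had a window, at chr19:32619755-32620004 on the plus strand, with 1 CG pair and 1 AACAAT on the other strand, which began 235 bases before that start. Of the 10 genes, 8 had an entry in this table.

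Before any comparison, some libraries went against or stood apart from their labels. Trim28 had 172, 314 and 165 CPM (read counts scaled to the library size) in the libraries labelled CKO 1, 2 and 3, against 305, 391 and 443 CPM in control libraries 1, 2 and 3. The library labelled CKO 2 thus lay within the range of the controls, and the edgeR test did not call Trim28 (log2 fold change -0.81, SE 0.34, adjusted p = 0.339). Among other methods, edgeR without its robust option (adjusted p = 0.0194) and limma-voom (0.0165) called it lower, and DESeq2 did not (0.167). Without the library labelled CKO 2 the log2 fold change of Trim28 was -1.17 (adjusted p = 0.0763). A ribosomal RNA row took 0.563% to 0.79% of the counts in CKO libraries and 0.126% to 0.522% in control libraries. Transcripts of 4 Y-linked genes had 3682 to 8275 counts in CKO libraries, against 3203, 1 and 4564 counts in control libraries 1, 2 and 3. Xist, the RNA that silences an X chromosome in female cells, had 15232, 7 and 4 counts in CKO libraries 1, 2 and 3, against 24633, 36330 and 17569 counts in control libraries 1, 2 and 3. CKO 1, control 1 and control 3 thus held both Xist and Y-linked reads. CKO 2 and 3 held Y-linked reads and almost no Xist, and control 2 held Xist and 1 Y-linked count. The sexes were thus not balanced between the groups, and sex and group cannot be fully told apart. Since the number of hearts per library is not given, each SD is a spread between libraries and not between single embryos. Total counts ran from 34400841 to 39763233 in CKO libraries and from 36854002 to 39702929 in control libraries. Heart muscle, endocardial, cushion, epicardial, smooth muscle, macrophage and red cell markers were present in every library, and only a glial and neural crest marker list had a gene at 0 counts in a library. Their levels were not all alike. The summed level of 6 heart muscle markers was 26908 to 27718 CPM in CKO and 25216 to 26631 CPM in control hearts. Of these 6, Myh6 was called higher (log2 fold change 0.33, adjusted p = 0.0103) and 5 were not called. Of 6 epicardial markers, Krt19 was called higher (0.59, 0.00165) and 5 were not called. All 8 red cell markers had negative log2 fold changes, and none was called.

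**Figure D1:**
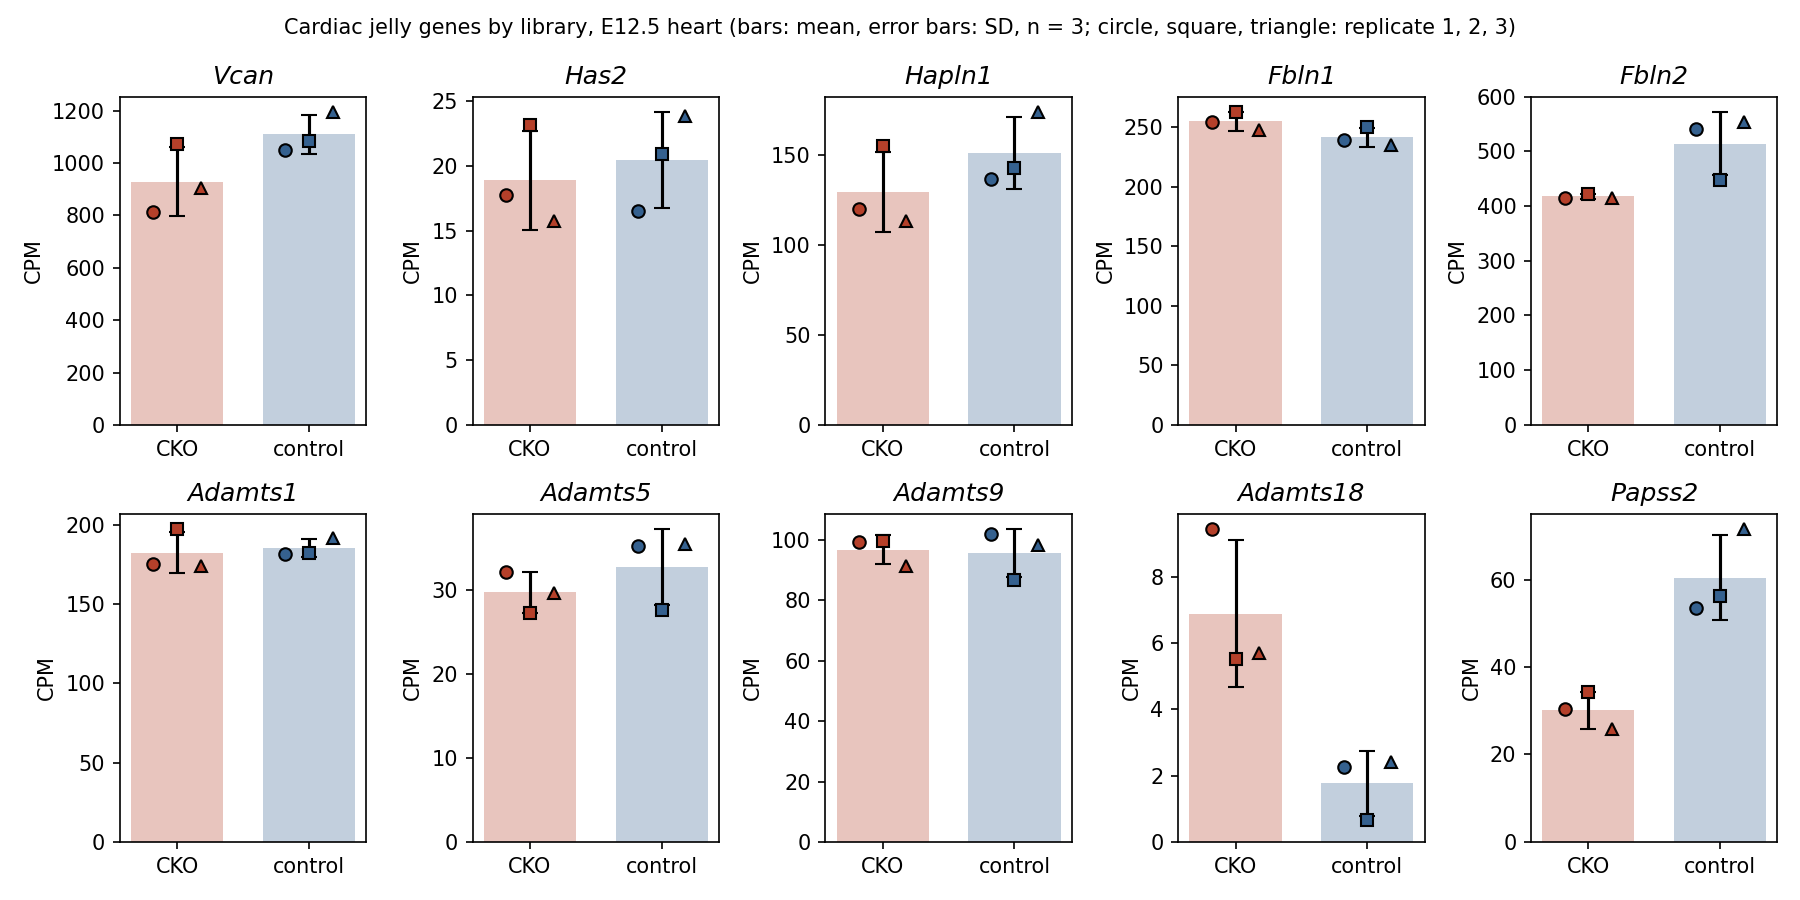
CPM (vertical axes, from 0) of each of the 10 genes in CKO libraries, on the left of each panel, and control libraries, on the right; bars are means, error bars are SD over 3 libraries, and circles, squares and triangles are replicates 1, 2 and 3. The CKO and control points part for Adamts18, Papss2 and Fbln2 and overlap for the other 7 genes.

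Scaled to exon length, the 10 genes spanned a wide range of levels in these hearts. Fbln2, whose fibulin is laid down in the cushions and around vessels, had 65.6 ± 0.674 CPM per kb in CKO hearts and 80.7 ± 9.02 CPM per kb in control hearts (SD, n = 3 each). Vcan had 64.2 ± 9.06 CPM per kb in CKO and 76.7 ± 5.23 in control hearts. Fbln1 had 58.3 ± 1.76 CPM per kb in CKO and 55.3 ± 1.80 in control hearts. These 3 matrix genes had the highest levels of the 10, and the values of Vcan overlapped those of Fbln2 in both groups and those of Fbln1 in CKO hearts.

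Adamts1 had the highest level of the 4 protease genes, with 34.4 ± 2.45 CPM per kb in CKO and 34.95 ± 1.06 in control hearts. Hapln1 followed with 21.9 ± 3.80 CPM per kb in CKO and 25.6 ± 3.38 in control hearts. Papss2 had 8.10 ± 1.14 CPM per kb in CKO and 16.3 ± 2.61 in control hearts, and its values overlapped those of neither neighbour in the order in either group. Adamts9, Has2 and Adamts5 lay lower, at 6.43 ± 0.316, 4.46 ± 0.901 and 2.76 ± 0.229 CPM per kb in CKO hearts and at 6.35 ± 0.531, 4.83 ± 0.873 and 3.04 ± 0.417 CPM per kb in control hearts. Adamts18 was lowest, at 0.677 ± 0.217 CPM per kb in CKO and 0.174 ± 0.0957 in control hearts. The length used is the union of all annotated exons, so a gene such as Vcan, whose splice forms leave out long exons, is understated where short forms prevail.

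**Figure D2:**
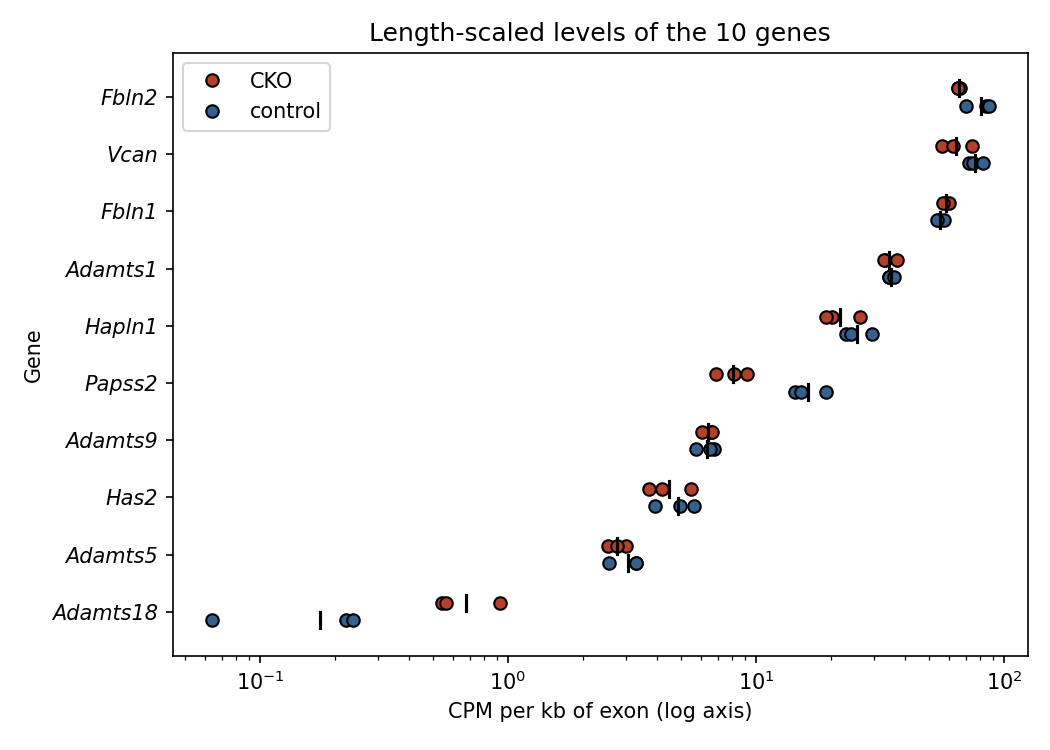
CPM per kb of exon (horizontal log axis) of the 10 genes in each CKO library, the upper row of each gene, and each control library, the lower row; black ticks are means of 3 libraries. Fbln2, Vcan and Fbln1 lead in both groups, and Adamts18 lies lowest at 0.677 in CKO and 0.174 in control hearts.

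Vcan, the versican gene (ENSMUSG00000021614.16, chromosome 13, 89655312 to 89742509, minus strand, build mm10), had 813, 1071 and 903 CPM in CKO hearts 1, 2 and 3, against 1049, 1083 and 1194 CPM in control hearts. CKO 1 and 3 lay below every control, and CKO 2 lay between control 1 and control 2. This gave a log2 fold change of -0.26 (SE 0.10, 95% interval -0.48 to -0.03), and the adjusted p of 0.22 lay above the threshold of 0.05. Without the library labelled CKO 2 the log2 fold change was -0.37, and the gene was called (adjusted p = 0.000168). It was called in no other fit with 1 library left out (adjusted p from 0.23 to 0.442). Without the filter on low counts it was also called (log2 fold change -0.26, adjusted p = 6.7e-06). The fold change was the same as in the full fit, and the unfiltered fit called more genes over the whole table in both directions.

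Hapln1, which encodes the link protein that fastens versican to hyaluronan, is the neighbour of Vcan on chromosome 13 (ENSMUSG00000021613.9, 89539796 to 89611652, plus strand), with a gap of 43659 bases and no protein-coding gene between them. It had 120, 155 and 113 CPM in CKO hearts, against 137, 143 and 174 CPM in control hearts. As for Vcan, CKO 1 and 3 lay below every control while CKO 2 did not. Its log2 fold change was -0.22 (SE 0.16, adjusted p = 0.566), with an interval of -0.63 to 0.18. Without the library labelled CKO 2 it was -0.37 (adjusted p = 0.0396), and no other omission gave a call (adjusted p from 0.488 to 0.792).

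Has2 encodes the hyaluronan synthase without which mouse embryos form no cardiac jelly (ENSMUSG00000022367.7, chromosome 15, 56665627 to 56694539, minus strand). It had 17.8, 23.1 and 15.7 CPM in CKO hearts, against 16.5, 21.0 and 23.9 CPM in control hearts. The groups overlapped, with the lowest value in CKO 3 and the highest in control 3. The log2 fold change was -0.12 (SE 0.16, adjusted p = 0.782), with an interval of -0.47 to 0.23. An antisense gene that overlaps it, Has2os, had 5 to 8 counts in CKO and 6 to 19 in control libraries, at most 2.13% of the Has2 count of the same library.

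Both fibulin genes were abundant, and 1 of them changed. Fbln2 (ENSMUSG00000064080.12, chromosome 6, 91212455 to 91272540, plus strand) had 416, 423 and 415 CPM in CKO hearts, against 542, 448 and 553 CPM in control hearts. The 3 CKO values lay close together and below every control, and control 2 was the nearest to them. On the log2 scale Fbln2 fell by 0.30 (SE 0.07, adjusted p = 0.017). The call was lost without CKO 1 (adjusted p = 0.103), CKO 3 (0.0942), control 1 (0.0856) or control 3 (0.0944), with log2 fold changes of -0.30 to -0.25, and with the ribosomal RNA share as a covariate (adjusted p = 0.375).

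Fbln1 encodes the fibulin that binds versican and acts as a cofactor of ADAMTS1 (ENSMUSG00000006369.14, chromosome 15, 85205949 to 85286535, plus strand). It had 255, 263 and 247 CPM in CKO hearts, against 239, 250 and 235 CPM in control hearts. CKO over control, the log2 fold change of Fbln1 was 0.08 (SE 0.05, adjusted p = 0.467), with an interval of -0.03 to 0.19. Of 7 cushion mesenchyme markers, 1 was called lower and none higher, namely the matrix gene Postn with a log2 fold change of -0.29 (adjusted p = 0.0156, called in 3 of the 6 fits with 1 library left out). The other 6 were not called, with Prrx1 at 0.12 and Msx1 at 0.04 on the log2 scale. The summed level of the 7 was 742 to 814 CPM in CKO and 857 to 1024 CPM in control hearts, and its part in the Fbln2 difference was not tested. Most of this sum was Postn, with means of 488 CPM in CKO and 596 CPM in control hearts. The summed level of 6 endocardial and endothelial markers was 897 to 1046 CPM in CKO and 1067 to 1126 CPM in control hearts, with Tek and Cdh5 called lower and none higher. Tek was called in all 6 fits with 1 library left out and Cdh5 in 3.

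The 3 proteases known to cut versican in the heart showed no called difference. Adamts1, which the endocardium expresses as trabeculae stop growing, had 176, 197 and 174 CPM in CKO hearts, against 182, 182 and 192 CPM in control hearts (ENSMUSG00000022893.14, chromosome 16, 85793827 to 85803113, minus strand). Its log2 fold change was -0.02 (SE 0.06, adjusted p = 0.887), with an interval of -0.14 to 0.10. Adamts5, a versican protease of the developing valves, lies 53059 bases from it on the same strand (ENSMUSG00000022894.6, 85856173 to 85901828). Adamts5 had 32.3, 27.3 and 29.7 CPM in CKO hearts, against 35.3, 27.6 and 35.6 CPM in control hearts. Replicate 2 was the lowest of each group, and the groups overlapped. The log2 fold change of Adamts5 was -0.14 (SE 0.10, adjusted p = 0.503), with an interval of -0.35 to 0.07.

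Adamts9, a widely expressed protease needed for normal mouse valves and outflow vessels (ENSMUSG00000030022.14, chromosome 6, 92772699 to 92943492, minus strand), had 99.3, 99.7 and 91.3 CPM in CKO hearts. Control hearts had 102, 86.6 and 98.4 CPM of it. For Adamts9 the log2 fold change was 0.02 (SE 0.07, adjusted p = 0.938), with an interval of -0.12 to 0.15. Genes overlap Adamts9 on the other strand, and the most abundant, A730049H05Rik, reached at most 4.32% of its counts in a library.

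Adamts18 was the least abundant of the 10 genes and had the largest difference between the groups. It encodes a less studied secreted protease of the same family, linked in humans to an inherited eye disorder (ENSMUSG00000053399.9, chromosome 8, 113697126 to 113848738, minus strand). It had 9.44, 5.52 and 5.71 CPM in CKO hearts, from 342, 190 and 226 counts, against 2.26, 0.649 and 2.40 CPM in control hearts, from 90, 25 and 90 counts. The lowest CKO library stood above the highest control library, CKO 1 was the highest of all, and control 2 was the lowest. On the log2 scale Adamts18 rose by 1.96 (SE 0.36, adjusted p = 0.0155), with an interval of 1.15 to 2.77, and it ranked 50 from the top among the 17557 genes tested. Smooth muscle markers were higher in the same hearts, with a summed level of 4 markers of 2142 to 2602 CPM in CKO and 1509 to 1533 CPM in control hearts. Of these 4, Myh11 (log2 fold change 1.61, adjusted p = 0.00313), Acta2 (0.65, 0.000641) and Cnn1 (0.47, 0.00548) were called higher, each also in all 6 fits with 1 library left out, and Tagln was not called (adjusted p = 0.277). Acta2 made up most of the summed level, with means of 1891 CPM in CKO and 1208 CPM in control hearts, so the sum mainly follows that gene. The part of these 4 markers in the Adamts18 difference was not tested.

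Adamts18 was called in all 6 fits with 1 library left out, with log2 fold changes of 1.56 to 2.22 (adjusted p from 0.00653 to 0.0472). The smallest of these came without control 2, the control library with 1 count of Y-linked genes. With Y-linked expression as a covariate the log2 fold change was 1.54 (adjusted p = 0.0296). This covariate mainly sets control 2 apart from the other libraries, so it nearly repeats the omission of control 2. It is thus not a full adjustment for sex. With the ribosomal RNA share as a covariate the log2 fold change was 1.63 and the gene was not called (adjusted p = 0.475). The ribosomal share was higher in every CKO library than in every control library, so the share and the group cannot be told apart. A fit with edgeR's legacy quasi-likelihood method did not call the gene (adjusted p = 0.0626).

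**Figure D3:**
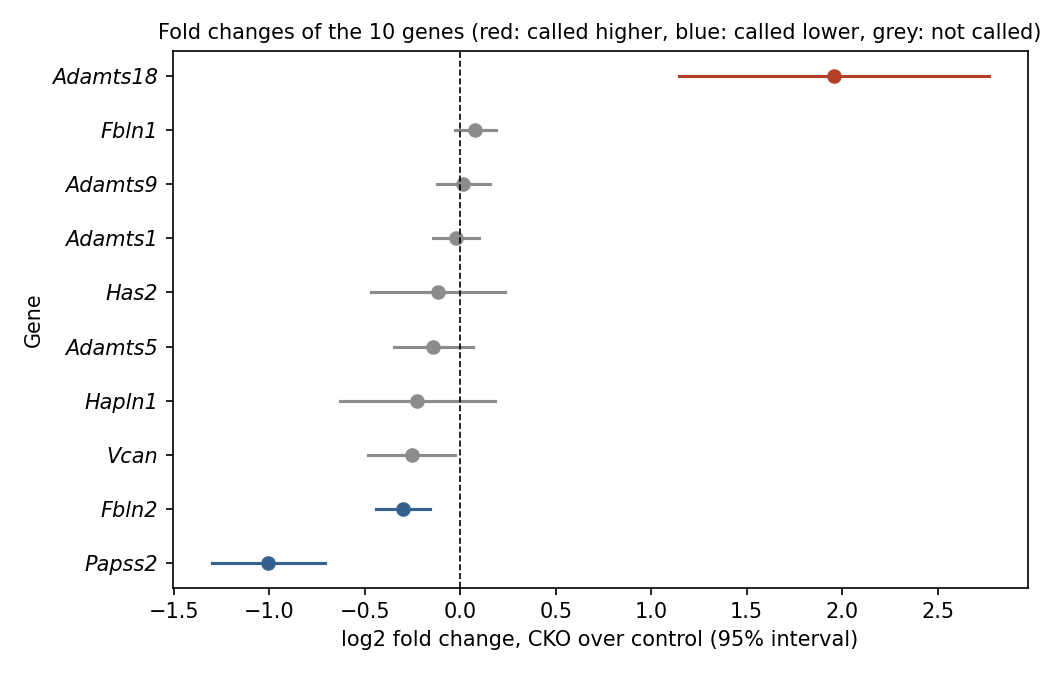
Log2 fold changes, CKO over control (horizontal axis), of the 10 genes, with 95% intervals as lines. Adamts18 at 1.96 lies to the right of 0, Papss2 at -1.01 and Fbln2 at -0.30 lie to the left, and the interval of Vcan, which was not called, ends at -0.03.

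Papss2 had the clearest fall of the 10 genes. It encodes an enzyme that joins ATP and sulfate into PAPS, and its loss in mice and humans disturbs the sulfation of cartilage proteoglycans (ENSMUSG00000024899.7, chromosome 19, 32595790 to 32667187, plus strand). It had 30.4, 34.3 and 25.8 CPM in CKO hearts, against 53.6, 56.3 and 71.6 CPM in control hearts. Every CKO value lay well below every control value, also in the library labelled CKO 2. On the log2 scale Papss2 fell by 1.01 (SE 0.13, adjusted p = 0.00313), with an interval of -1.30 to -0.71.

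The fall of Papss2 was called in 5 of the 6 fits with 1 library left out. Without CKO 1 the log2 fold change was -1.02 and the adjusted p was 0.0695, and over all 6 fits the log2 fold changes ran from -1.11 to -0.87. With the ribosomal RNA share as a covariate it was -0.76 (adjusted p = 0.0649), and with Y-linked expression as a covariate -1.07 (adjusted p = 0.00998).

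Papss1, which encodes the other PAPS synthase, had 66.8, 69.9 and 65.4 CPM in CKO hearts, against 61.9, 67.0 and 66.9 CPM in control hearts. Its log2 fold change was 0.05 (SE 0.06, adjusted p = 0.784), with an interval of -0.08 to 0.18. Papss2 made up 31.3%, 32.9% and 28.3% of the Papss1 and Papss2 counts in CKO hearts, against 46.4%, 45.7% and 51.7% in control hearts. The means were 30.8% ± 2.34 in CKO and 47.9% ± 3.28 in control hearts (SD, n = 3 each), a difference of -17.1 percentage points. The groups did not overlap, and the two-sided exact permutation test gave p = 0.1, the smallest that 3 libraries against 3 allow. These shares rest on 3523 to 3607 counts in CKO and 4601 to 5184 counts in control libraries.

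The 10 genes varied together in part within each group. CKO 2 was the highest CKO library for 8 of the 10 genes, all but Adamts5 and Adamts18, and CKO 3 was the lowest for 7. Control 3 was the highest control library for 8 of the 10, all but Fbln1 and Adamts9. Vcan, Has2, Hapln1 and Papss2 thus shared their highest library in each group, while Adamts18 had its highest value in CKO 1. All genes of a library share its RNA source, and the share of all genes tested that were highest in CKO 2 or control 3 was not counted. The pattern is thus a description of these 6 libraries and cannot be read as a trait of these 10 genes.

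**Figure D4:**
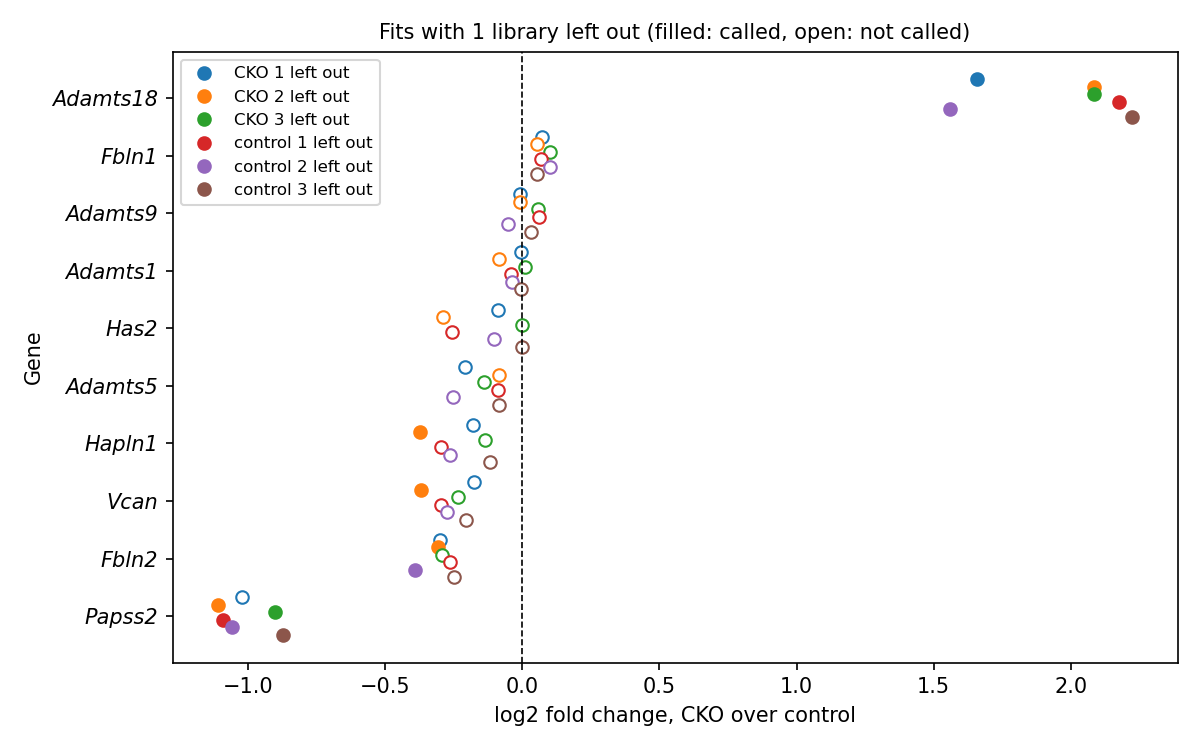
Log2 fold changes, CKO over control (horizontal axis), of the 10 genes in 6 fits that each left out 1 library; colours name the library left out, filled points were called and open points were not. Adamts18 is filled in all 6 fits and Papss2 in 5, while Vcan and Hapln1 are filled only without CKO 2.

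The genes whose profiles over the 6 libraries were most like those of 3 members were found as the smallest root-mean-square difference of centred log2 CPM. The difference between the groups is part of such a profile, so the direction of each gene found was largely set by the choice. For Vcan these were Fmod, a small proteoglycan gene, at 0.024, the ciliary gene Ofd1 at 0.030 and the ligand gene Wnt5a at 0.030. None of these 3 was called (adjusted p = 0.115, 0.315 and 0.115). For Papss2 they were Rnf43 at 0.111, Lmo1 at 0.126 and Mthfs at 0.166, none of them called (adjusted p = 0.105, 0.326 and 0.24). For Adamts18 they were Platr27 at 0.266, Hist1h2bn at 0.295 and Rbp4 at 0.415, of which Hist1h2bn (adjusted p = 0.0467) and Rbp4 (adjusted p = 0.0278) were called higher. Hist1h2bn was called in none and Rbp4 in 1 of the 6 fits with 1 library left out. The 3 genes nearest Papss2 averaged 0.293 to 1.36 CPM in CKO and 0.606 to 2.46 CPM in control hearts, so their profiles carry more counting error than that of Papss2. The 3 nearest Adamts18 were also low, at 0.49 to 1.35 CPM in CKO and 0.12 to 0.41 CPM in control hearts.

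Around these 10 genes, 102 genes of 8 pathway lists were read from the same fit, and 97 of them were tested. Of these, 4 were higher and none lower in CKO hearts, which is 4.12% of them and near the 4.1% called among all genes tested (3.03% higher, 1.07% lower). Their median log2 fold change was -0.02, against 0.00 over all genes tested. At an unadjusted p under 0.05 edgeR gave 11 higher and 10 lower genes of the 97, against 10.1% higher and 7.69% lower among all genes tested. DESeq2 called 6 higher and 1 lower, adding Thsd4, B3gat3 and, as the lower gene, Hmcn1, and limma-voom called 4 higher and none lower. Among all genes, DESeq2 called 5.22% higher and 2.4% lower and limma-voom 2.82% higher and 1.04% lower. In lists without a call, the 2 genes with the smallest adjusted p are named with their values. With the ribosomal RNA share as a covariate Adamtsl2 was called (adjusted p = 0.00455), and Cd44 (0.285), Chst12 (0.293) and Chst11 (0.425) were not.

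Hyaluronan genes outside Has2 included 1 call among 13 tested. Cd44, the main cell surface receptor of hyaluronan, had 115, 97.0 and 120 CPM in CKO hearts, against 85.8, 82.5 and 81.7 CPM in control hearts. Each CKO value lay above each control value (log2 fold change 0.41, SE 0.07, adjusted p = 0.00189), and the gene was called in all 6 fits with 1 library left out. Macrophages also carry Cd44. The summed level of 6 macrophage markers was 89.8 to 100 CPM in CKO and 72.6 to 74.2 CPM in control hearts, with C1qa, C1qb and C1qc called higher (in 2, 1 and 4 of the 6 fits with 1 library left out), and its part in the Cd44 difference was not tested. The synthase genes Has1 and Has3 and the hyaluronidase genes were among the 12 genes not called.

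No call was made among 4 tested genes of other lecticans and link proteins, 9 of fibulins and elastic fibres, and 14 of other ADAMTS proteases. At an unadjusted p under 0.05 edgeR gave 0 genes of the lecticans and link proteins, 1 higher and 2 lower of the fibulins and elastic fibres, and 1 higher and 2 lower of the proteases. DESeq2 called Hmcn1 lower and no other gene of these 3 lists, and limma-voom called none. Acan, the aggrecan gene, had 3.85 ± 0.112 CPM in CKO and 6.77 ± 3.31 CPM in control hearts (SD, n = 3 each), with an adjusted p of 0.36. Control 2 had 2.96 CPM of Acan, against 8.98 and 8.36 CPM in controls 1 and 3. Acan was called lower without control 2 (log2 fold change -1.17, adjusted p = 0.00237) and with Y-linked expression as a covariate (-1.27, 0.00248). That covariate mainly sets control 2 apart, so these fits are not separate checks. Hapln4, another link protein gene, had 0.329 ± 0.164 CPM in CKO and 0.623 ± 0.306 CPM in control hearts (adjusted p = 0.446). Hmcn1, which encodes the long fibulin hemicentin, was at 167 ± 15.8 CPM in CKO and 193 ± 4.87 CPM in control hearts (adjusted p = 0.0736). The fibrillin gene Fbn1 was at 416 ± 22.1 CPM in CKO and 467 ± 35.3 CPM in control hearts (adjusted p = 0.124). Of the proteases, Adamts6 had a log2 fold change of -0.25 (adjusted p = 0.172) and Adamts17 one of -0.25 (adjusted p = 0.22). Without the library labelled CKO 2, Hmcn1 (adjusted p = 0.00578), Fbn1 (0.0193) and Adamts6 (0.00121) were called lower, and without control 2 Adamts17 was (0.0445). Without the filter on low counts Acan (0.0012), Hmcn1 (0.0103), Fbn1 (0.0169) and Adamts6 (0.0246) were called lower, in a fit that called more genes over the whole table.

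Among 10 tested genes of ADAMTS-like proteins and of the TIMP inhibitors, Adamtsl2 was higher and none was lower. ADAMTSL2 has no protease domain and binds fibrillin microfibrils. Adamtsl2 had 44.7, 39.2 and 39.3 CPM in CKO hearts, against 20.2, 23.1 and 28.5 CPM in control hearts, with no overlap. The log2 fold change was 0.78 (SE 0.11, adjusted p = 0.000558), and the gene was called under all 20 alternatives (adjusted p up to 0.0107). The part of the higher smooth muscle markers in the Adamtsl2 difference was not tested.

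Among 9 tested genes of sulfate supply other than Papss2, none was called, and 1 higher and 1 lower gene had an unadjusted p under 0.05. Slc26a1, a sulfate transporter gene, had 2.73 ± 0.61 CPM in CKO and 1.55 ± 0.357 CPM in control hearts (SD, n = 3 each), with a log2 fold change of 0.82 and an adjusted p of 0.118. Slc35b2, whose product carries PAPS into the Golgi, had 58.8 ± 4.81 CPM in CKO and 67.3 ± 3.66 CPM in control hearts (adjusted p = 0.134). Slc26a1 was called higher without CKO 2 (adjusted p = 0.048), and Slc35b2 lower without CKO 1 (0.0356).

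Of 21 tested genes that build and sulfate chondroitin chains, 2 were higher and none lower. Both encode sulfotransferases that use PAPS to sulfate the amino sugar of chondroitin. Chst12 had 40.0, 29.9 and 34.8 CPM in CKO hearts, against 24.6, 24.8 and 27.0 CPM in control hearts (log2 fold change 0.46, SE 0.10, adjusted p = 0.00917). It was called in 4 of the 6 fits with 1 library left out, just under the threshold without CKO 1 (adjusted p = 0.05 after rounding), and not without control 1 (0.0645) or control 2 (0.0571). Chst11 had 84.4, 75.2 and 84.9 CPM in CKO hearts, against 66.2, 71.8 and 67.6 CPM in control hearts (log2 fold change 0.25, SE 0.06, adjusted p = 0.0317). It was called in 1 of the 6 fits with 1 library left out, that without CKO 2, and not in the other 5, those without CKO 1, CKO 3, control 1, control 2 or control 3 (adjusted p up to 0.185). With Y-linked expression as a covariate neither Chst12 (adjusted p = 0.0683) nor Chst11 (0.0628) was called, and with a replicate block Chst11 was not (0.0599).

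Of 17 tested genes of heparan sulfate chains, none was called, and 2 lower genes had an unadjusted p under 0.05. DESeq2 and limma-voom also called none of the sulfate supply or heparan sulfate genes. Ndst4, a sulfotransferase gene, had a log2 fold change of -0.68 (adjusted p = 0.182), and Sulf2, which encodes an extracellular sulfatase, one of -0.13 (adjusted p = 0.209). Sulf2 was called lower without CKO 2 (adjusted p = 0.0253). The sulfation genes that passed the test in the full fit were thus Papss2, which was lower, and Chst11 and Chst12, which were higher. None of them was called with the ribosomal RNA share as a covariate. Papss2 was called in 5, Chst12 in 4 and Chst11 in 1 of the 6 fits with 1 library left out. In the pathway lists together 4.12% of the tested genes were called, near the 4.1% of all genes tested.

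**Figure D5:**
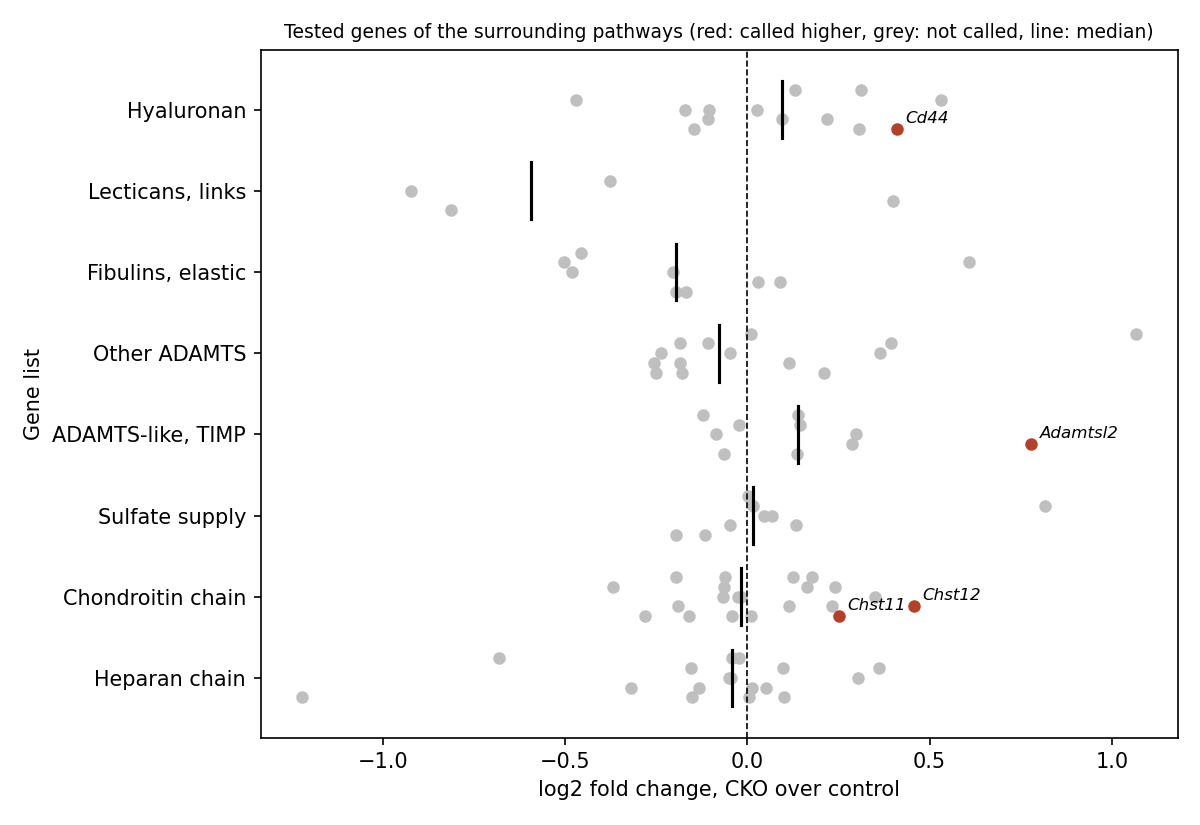
Log2 fold changes, CKO over control (horizontal axis), of the 97 tested genes of 8 surrounding pathway lists; each point is a gene, red and named where called higher, and black lines are list medians. The named points are Adamtsl2 at 0.78, Chst12 at 0.46, Cd44 at 0.41 and Chst11 at 0.25, and no gene was called lower.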

How the data were processed

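The file that the authors deposited gives unnormalized whole-number counts for 6 libraries, 1 row per gene symbol. Reads were placed on mm10, per the submitters' processing notes. Aligner, counting program, annotation and strand setting: not given in the sources used here. Reads of overlapping antisense genes therefore cannot be told apart. Per the labels' protocols, 500 ng of RNA entered each library. No label says that libraries came from separate animals. Xist ran from 4 to 15232 counts among CKO libraries, and Y-linked genes from 1 to 4564 counts among control libraries. The libraries of a group thus did not all hold the same RNA. How much of the spread behind each p-value is technical was not tested.

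Counts were filtered with filterByExpr (minimum count 10, total 15), which left 17557 genes, scaled by TMM and tested with edgeR 4.0.16 in R 4.3.3 (robust quasi-likelihood test, two-sided, group as the only term). Benjamini-Hochberg adjustment ran over every tested gene, with calls made at an adjusted p under 0.05. Each adjusted p comes from this test or from the named alternative. SE is the fold change over the square root of F. CPM used TMM-scaled library sizes. Positions and exon lengths are from GENCODE M21 (mm10), and upstream sequences are from RefSeq on GRCm38.p6. DESeq2 1.42.0 and limma-voom (limma 3.58.1) were alternatives. On simulated counts of this comparison (17008 genes), the test recovered 8 of 50 genes set to a fold of 1.2, 38 of 50 at 1.5, 42 of 50 at 2 and 50 of 50 at 4.

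The members, gene lists and tests were chosen with earlier results of these data known. The rule for named genes took all 10 members, Trim28, per pathway list up to 4 called genes (or the 2 of smallest adjusted p where none was called), and for 3 members the 3 nearest profiles (log2 CPM with a prior count of 2). Marker genes named beside a result or in the description of the libraries, and Papss1, which is compared with Papss2, are the exceptions.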

Additional observations from a re-analysis of the deposited data

How the results depend on the processing

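Of 200 results of the 10 genes under 20 alternatives, 176 kept the direction and the side of the threshold. One alternative was no refit but the full fit read at an adjusted p under 0.01. Reversed signs came only in Adamts9, Has2 and Adamts1, which were called under none of the alternatives. Adamts9 (0.02 in the full fit) was at -0.01 with no scaling factors (-0.0059), without CKO 1 (-0.0097) and without CKO 2 (-0.0068), -0.05 without control 2 (-0.052), -0.05 with the ribosomal RNA covariate (-0.053) and -0.06 with the Y-linked covariate (-0.059). Has2 (-0.12 in the full fit) was at 0.00035 without control 3 and 0.23 with the ribosomal RNA covariate. Adamts1 (-0.02 in the full fit) was at 0.0083 without CKO 3 and 0.021 with the ribosomal RNA covariate. Without 1 library, the log2 fold change of Has2 ran from -0.29 to 0.00035, that of Adamts1 from -0.085 to 0.0083 and that of Adamts9 from -0.052 to 0.060. The cause was not tested.

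Over all genes tested, 532 were higher and 188 lower in CKO. With the ribosomal RNA covariate 53 were higher and 3 lower, with the Y-linked covariate 292 and 43, without the low-count filter 863 and 388, with DESeq2 738 and 339, and at an adjusted p under 0.01 247 and 34. Leaving out 1 library gave 255 to 1012 higher and 39 to 540 lower genes. Of the 10 genes, 1 higher and 2 lower were called. The legacy fit called 0 higher, the ribosomal RNA covariate 0 higher and 0 lower, an adjusted p under 0.01 0 higher and 1 lower, and the fit without the low-count filter 1 higher and 3 lower, adding Vcan. Without 1 library, 1 higher (in each fit) and 0 to 4 lower were called, 4 without CKO 2 and 0 without CKO 1. The difference in the Papss2 share ran from -18.2 to -15.2 percentage points without 1 library.

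Libraries with the same replicate number did not deviate together (correlations of -0.0022, 0.017 and 0.0014). With 3 libraries per group, and sexes and ribosomal share that differ between libraries, this cannot show whether they share a source. With a replicate block, 518 genes were higher and 158 lower, and the members called numbered 1 higher and 2 lower. The low counts of Adamts18, 25 in control 2, limit the precision of its fold change.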
